A study of Mus musculus with 24 samples.

Results

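The genes described here are 39 genes of the unfolded protein response and the integrated stress response, of 55487 genes listed in C2C12 myotubes, and all 39 passed the filter on low values that left 14541 genes for testing. They were chosen by symbol and matched through their mouse Ensembl identifiers, and they fall into 4 groups: an ATF4 arm of 15 genes, 6 stress sensors and proximal regulators, 14 chaperones and folding enzymes of the endoplasmic reticulum (ER), and 4 genes of ER-associated degradation. The cells were wild-type C2C12 myotubes, a mouse skeletal muscle line, differentiated under 5 % O2 and labelled day 5. After 2 h under 5 % or 1 % O2 they were either left without stimulation (5 % CTRL and 1 % CTRL) or electrically stimulated in short bouts that mimic sprint intervals (5 % STIM and 1 % STIM), with 6 libraries in each of the 4 groups. All groups shared the line and the differentiation at 5 % O2, so that each comparison concerns acute exposure in a single established line. Per the study's methods, all wells received fresh medium before the 2 h exposure, whichever O2 level followed. For the medium changes around stimulation, the methods do not say whether unstimulated wells were handled alike, so those changes and the stimulation cannot be told apart.

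Misfolded protein in the ER is sensed by the transmembrane proteins PERK, IRE1 and ATF6, which are encoded by Eif2ak3, Ern1 and Atf6. PERK phosphorylates the translation factor eIF2, as do kinases that sense amino acid shortage, viral RNA or heme, and this slows translation in general while that of Atf4 rises. ATF4 then raises genes for amino acid synthesis and transport and further regulators such as Ddit3 (CHOP), whereas cleaved ATF6 and spliced XBP1 raise ER chaperones and degradation factors. Translation of Atf4, cleavage of Atf6 and splicing of Xbp1 are not visible in counts per gene, and all levels below are RNA levels.

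Promoter windows were searched for known elements of these pathways. The genes were chosen as known members of the same pathways, so the matches are not independent of that choice. RefSeq windows of 300 bases (250 before and 50 after the start site, build GRCm38.p6) were found for 35 of the 39 genes, other than Atf6, Hyou1, Manf and Ppp1r15b. The element bound by ATF4 with C/EBP partners was searched as TGATGNAA (CARE) and the XBP1 element as TGACGTGG (UPRE). The ER stress element was searched as CCAAT and CCACG separated by 9 bases (ERSE), and its second form as ATTGG and CCACG separated by 1 base (ERSE-II). Both strands were searched. CARE was matched in 5 of 15 genes of the ATF4 arm (Asns, Atf3, Chac1, Nupr1 and Trib3), in Herpud1, and in 3.97 % of all 32851 windows of this length. ERSE was matched in 7 of 12 ER chaperone genes with a window (Calr, Canx, Creld2, Dnajc3, Hsp90b1, Hspa5 and Pdia6), in Syvn1, in none of the ATF4 arm, and in 0.119 % of all windows. ERSE-II was matched in Dnajb11 and Herpud1 and in 0.0365 % of all windows, while UPRE was matched in none of the 35 genes and in 0.676 % of all windows. No matches overlapped within these windows, and a match describes letters in the window and does not show binding.

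Windows of 5 genes are printed because they stand for the kinds of member compared below, on the strand of the gene and with the matches in capitals. Trib3 at chr2:152344011-152344310 (minus strand) and Chac1 at chr2:119350992-119351291 (plus strand) carry CARE. Herpud1 at chr8:94386179-94386478 (plus strand) carries CARE and then ERSE-II. Hspa5 at chr2:34771840-34772139 (plus strand) and Calr at chr8:84846882-84847181 (minus strand) carry ERSE.
Trib3: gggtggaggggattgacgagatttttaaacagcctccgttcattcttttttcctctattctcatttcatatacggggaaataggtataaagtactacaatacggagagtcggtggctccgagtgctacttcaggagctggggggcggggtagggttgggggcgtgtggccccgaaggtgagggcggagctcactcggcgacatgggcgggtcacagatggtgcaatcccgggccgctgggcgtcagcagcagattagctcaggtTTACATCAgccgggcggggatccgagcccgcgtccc
Chac1: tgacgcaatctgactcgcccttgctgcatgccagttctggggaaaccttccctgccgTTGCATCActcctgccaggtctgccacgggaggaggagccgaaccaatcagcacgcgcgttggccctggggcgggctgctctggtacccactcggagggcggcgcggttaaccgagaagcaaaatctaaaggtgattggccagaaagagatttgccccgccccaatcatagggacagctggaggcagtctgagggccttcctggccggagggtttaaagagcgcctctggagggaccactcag
Herpud1: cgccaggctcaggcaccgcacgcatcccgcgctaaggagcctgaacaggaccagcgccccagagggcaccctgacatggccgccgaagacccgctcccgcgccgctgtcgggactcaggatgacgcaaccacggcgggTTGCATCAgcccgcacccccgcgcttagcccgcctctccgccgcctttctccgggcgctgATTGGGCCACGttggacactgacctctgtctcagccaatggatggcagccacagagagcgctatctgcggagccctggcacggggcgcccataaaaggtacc
Hspa5: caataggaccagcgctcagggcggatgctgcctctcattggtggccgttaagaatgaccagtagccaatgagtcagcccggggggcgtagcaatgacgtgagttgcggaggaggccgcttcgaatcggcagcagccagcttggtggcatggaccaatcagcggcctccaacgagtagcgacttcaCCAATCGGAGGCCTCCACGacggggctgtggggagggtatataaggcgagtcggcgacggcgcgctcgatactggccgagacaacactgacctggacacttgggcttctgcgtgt
Calr: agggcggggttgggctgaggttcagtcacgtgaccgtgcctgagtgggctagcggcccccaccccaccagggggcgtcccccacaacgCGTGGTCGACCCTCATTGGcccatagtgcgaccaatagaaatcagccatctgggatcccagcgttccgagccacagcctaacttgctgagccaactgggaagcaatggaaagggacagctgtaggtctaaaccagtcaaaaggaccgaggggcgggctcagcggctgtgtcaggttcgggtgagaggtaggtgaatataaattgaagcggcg

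**Figure D1:**
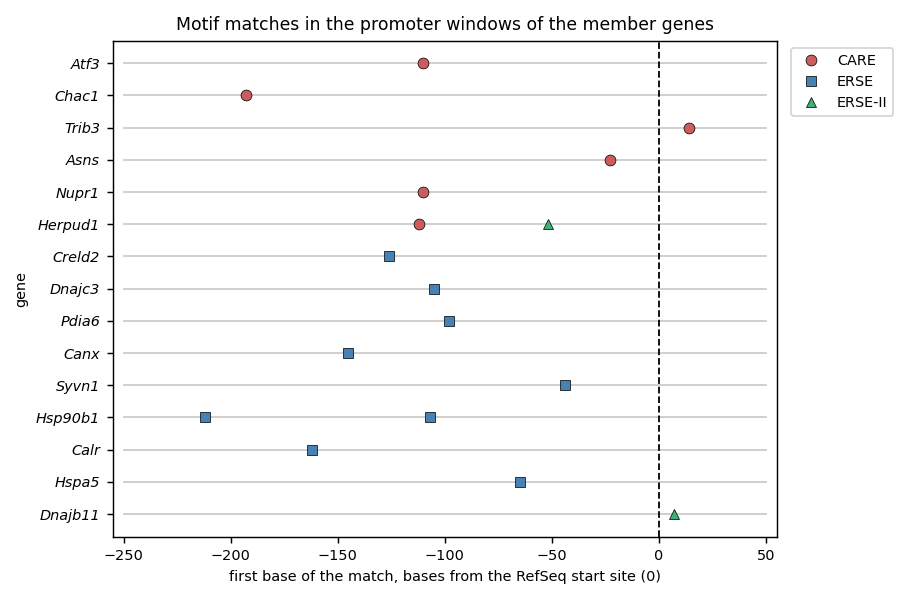
Position of each CARE (circles), ERSE (squares) and ERSE-II (triangles) match in the windows of the 15 genes that hold one, as the distance in bases of its first base from the RefSeq start site, marked by the dashed line at 0. The circles belong to genes of the ATF4 arm and Herpud1, whose row also holds a triangle as Dnajb11 does, and the squares to ER chaperone genes and Syvn1.

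Libraries held 26541858 to 28173745 reads, and the deposited values are counts divided by a size factor per library, called normalized counts below. The test was limma in 1 fit of all 4 groups, on log2(normalized count + 1), a scale that understates the change of low genes. A gene was called at a Benjamini-Hochberg adjusted p under 0.05 over the 14541 genes tested. All 14 myotube markers were tested, and 8 were called lower and 1 higher under 1 % O2 in each state. Over all genes, 30.5 % were called lower and 29.4 % higher without stimulation, and 28.4 % and 29 % with it. Stimulation, which lowered 12 % of all genes under 5 % O2 and 10.8 % under 1 % O2, lowered 4 and 2 of these markers and raised none. Their summed normalized counts were 644429 to 705045 in 5 % CTRL and 580262 to 669775 in 5 % STIM, against 594671 to 642659 in 1 % CTRL and 583925 to 638665 in 1 % STIM. Of 5 markers of other lineages, Pecam1, Ptprc, Adipoq and Epcam were at or near 0, and Pdgfra, of fibroblast-like cells, was at normalized counts of 181 to 201 in 5 % CTRL and 198 to 241 in 5 % STIM, against 111 to 154 in 1 % CTRL and 175 to 226 in 1 % STIM. Pdgfra was called lower in 1 % CTRL than in 5 % CTRL (log2 difference -0.48) and higher in 1 % STIM than in 1 % CTRL (0.53), with a called interaction of 0.35. For 8 markers of undifferentiated or cycling myoblasts the sums were 4052 to 4528 in 5 % CTRL and 4469 to 5294 in 5 % STIM, against 4732 to 6999 in 1 % CTRL and 4859 to 6031 in 1 % STIM. Of these 8 markers 5 were called higher and 2 lower in 1 % CTRL than in 5 % CTRL, and 3 higher and 2 lower in 1 % STIM than in 5 % STIM. With stimulation under 5 % O2, 4 were called higher and 1 lower, beside 9.44 % and 12 % of all genes. Under 1 % O2 stimulation raised 1 and lowered 1, beside 11.5 % and 10.8 % of all genes. The part of these marker lists in the results was not tested. The 4 genes chosen to check exposure to 1 % O2 (Slc2a1, Adm, Ankrd37 and Egln3) were all called higher under 1 % O2 in both states and lower with stimulation under both O2 levels. Of 4 chosen to check stimulation (Fos, Egr1, Nr4a1 and Arc) just Nr4a1 was called higher, and Arc was called lower. Replicate 1 of 1 % CTRL stood apart by its slope of log2 value on log2 exon length, 0.0945 against -0.0367 to 0.0550 in the other libraries. In bulk RNA, fewer cells and less RNA per cell cannot be told apart.

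In unstimulated myotubes, 1 % O2 lowered more of the 39 genes than it raised. Of them, 22 were called lower and 4 higher in 1 % CTRL than in 5 % CTRL, beside 30.5 % of all genes tested called lower and 29.4 % called higher. The 4 higher genes were Ppp1r15a, Eif2ak3, Sdf2l1 and Edem1. In stimulated myotubes, 23 were called lower and 5 higher in 1 % STIM than in 5 % STIM, beside 28.4 % and 29 % of all genes. The 5 higher genes were Ppp1r15a, Eif2ak3, Edem1, Ddit3 and Canx. Their median log2 difference was -0.17 in the first comparison and -0.22 in the second, where that over all genes was 0.0015 and -0.0008. With libraries rescaled to the same total, which raised the median of all genes by 0.08 and 0.07 in these comparisons, the counts were 9 higher and 20 lower, and 10 higher and 21 lower. Over all genes 39 % were then called higher and 23.2 % lower without stimulation, and 37.6 % and 21.9 % with it. The share of calls that were higher went from 15.4 % to 31.0 % of members called and from 49.0 % to 62.7 % of all genes called without stimulation, and from 17.9 % to 32.3 % and from 50.4 % to 63.2 % with it.

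Stimulation raised members under both O2 levels and lowered few. Under 5 % O2, 18 of 39 were called higher and 1, Hyou1, lower, beside 9.44 % and 12 % of all genes. Under 1 % O2, 16 were called higher and 1, Manf, lower, beside 11.5 % and 10.8 % of all genes. The median over the 39 genes was 0.09 and 0.08. Comparisons that use the same group share its 6 libraries, so the lists of calls are not independent of each other.

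**Figure D2:**
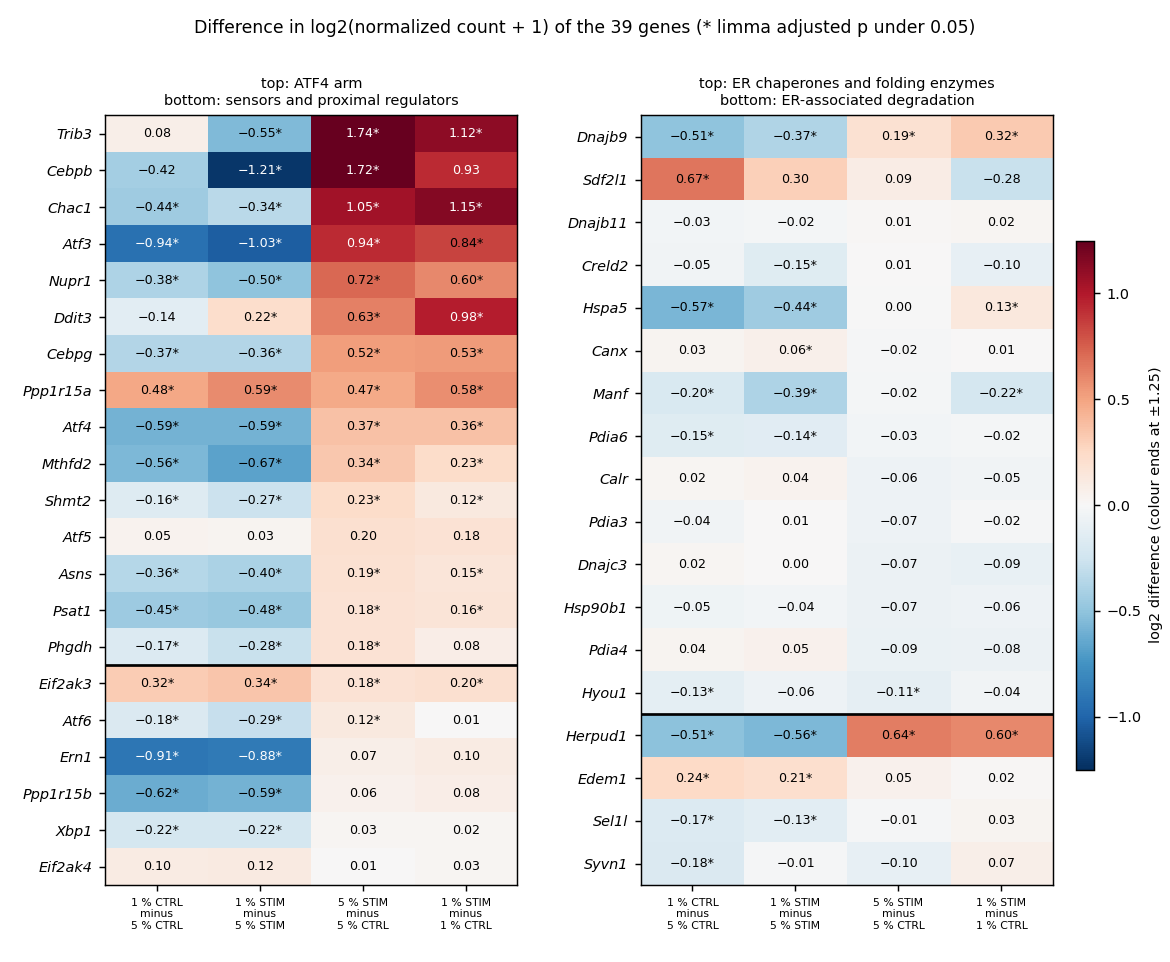
Difference in log2(normalized count + 1) of each of the 39 genes (rows) in 4 comparisons (columns), with red for higher and blue for lower, and an asterisk at a limma adjusted p under 0.05. The ATF4 arm is blue in most rows of the columns for O2 and red in those for stimulation, whereas most rows of the ER chaperones are pale.

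Of the 15 genes of the ATF4 arm, 10 were called lower and 1 higher under 1 % O2 without stimulation (median -0.37), and 12 lower and 2 higher with stimulation (median -0.40). Stimulation raised 14 of 15 under 5 % O2 (median 0.47), or 13 of 14 without the low gene Cebpb, and 12 of 15 under 1 % O2 (median 0.53), and lowered none. Of the 14 ER chaperones and folding enzymes, 5 were called lower and 1 higher in each comparison of O2 levels. Stimulation raised 1 and lowered 1 under 5 % O2 and raised 2 and lowered 1 under 1 % O2. For these 14 genes the calls under 1 % O2 were 35.7 % lower and 7.14 % higher, and with so few genes nothing is read from their distance to the shares over all genes given above. The medians lay between -0.045 and -0.028 in the 4 comparisons. A total of 11 genes were called lower under 1 % O2 in both states and higher with stimulation under both O2 levels. Of them 9 are in the ATF4 arm (Asns, Atf3, Atf4, Cebpg, Chac1, Mthfd2, Nupr1, Psat1 and Shmt2), and the others are Dnajb9 and Herpud1. Another 8 were called in none of the 4 comparisons, 6 of them ER chaperones (Calr, Dnajb11, Dnajc3, Hsp90b1, Pdia3 and Pdia4), with Atf5 and Eif2ak4. How many of all genes have either pattern was not counted, so no result about a list is drawn from these counts.

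Atf4, the transcription factor at the centre of the integrated stress response (ENSMUSG00000042406, chr15:80255184-80257541, plus strand), had normalized counts of 8903 to 10561 (median 9549.7) in 5 % CTRL and 5481 to 7026 (median 6431) in 1 % CTRL. Atf4 in stimulated myotubes was at 11724 to 12804 (median 12539.8) under 5 % O2 and 7593 to 8827 (median 8100.0) under 1 % O2. No group overlapped another, and the order from high to low was 5 % STIM, 5 % CTRL, 1 % STIM and 1 % CTRL. Its fitted level under 1 % O2 was 0.665 times that under 5 % O2 without stimulation (log2 difference -0.59, SE 0.047, adjusted p = 8.98e-12, limma) and 0.663 times with it (log2 difference -0.59, SE 0.047, adjusted p = 9.66e-12). Stimulation raised Atf4 1.29-fold under 5 % O2 (adjusted p = 7.58e-07, limma) and 1.29-fold under 1 % O2 (adjusted p = 6.96e-07). The difference between these responses, the interaction, was -0.0040 on the log2 scale, with a 95 % confidence interval of -0.14 to 0.13.

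Atf3, a stress-induced transcription factor, had normalized counts of 139.9 to 213 (median 152) in 5 % CTRL and 64.4 to 111 (median 82.3) in 1 % CTRL. Atf3 in stimulated myotubes was at 289 to 346 (median 302) under 5 % O2 and 124 to 186 (median 155) under 1 % O2. Within either state no library under 1 % O2 reached the lowest one under 5 % O2. The log2 difference was -0.94 (SE 0.11) for 1 % against 5 % O2 without stimulation and -1.03 (SE 0.11) with it. For stimulation it was 0.94 under 5 % O2 and 0.84 under 1 % O2, and limma called all 4.

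Mthfd2, a mitochondrial enzyme of one-carbon metabolism, had normalized counts of 3520.1 to 3732 (median 3654) in 5 % CTRL and 2358 to 2569 (median 2465) in 1 % CTRL. Mthfd2 in stimulated myotubes was at 4409 to 4747 (median 4612) under 5 % O2 and 2776 to 2955 (median 2918) under 1 % O2. The 4 groups did not overlap at all, and their order was 5 % STIM, 5 % CTRL, 1 % STIM and 1 % CTRL from high to low. Under 1 % O2 it fell by 0.56 without and fell by 0.67 with stimulation on the log2 scale (SE 0.027 in each; adjusted p = 1.28e-18 and 1.54e-20, limma). The enzymes of serine and asparagine synthesis had calls in the same directions. Asns (asparagine synthetase), Psat1 and Shmt2 were called lower in both comparisons of O2 levels and higher in both of stimulation, with log2 differences from -0.48 for Psat1 in 1 % STIM against 5 % STIM to 0.23 for Shmt2 in 5 % STIM against 5 % CTRL. Phgdh, the first enzyme of serine synthesis, had the same calls except for stimulation under 1 % O2 (0.081, adjusted p = 0.121, limma), which was called with libraries rescaled to the same total. Other gene models, among them Gm7901, hold 35.8 % of its runs of 75 exon bases, so its count is uncertain.

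Chac1, which degrades glutathione and is a known ATF4 target, had normalized counts of 624 to 805 (median 751) in 5 % CTRL and 429 to 597 (median 562) in 1 % CTRL. Chac1 in stimulated myotubes was at 1381 to 1653 (median 1512) under 5 % O2 and 1028 to 1351 (median 1204) under 1 % O2. The stimulated groups lay above both unstimulated groups, without overlap. Stimulation raised it 2.07-fold under 5 % O2 and 2.22-fold under 1 % O2 (adjusted p = 1.71e-09 and 2.52e-10, limma). Its log2 difference for 1 % O2 was -0.44 without and -0.34 with stimulation.

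Trib3, a pseudokinase that dampens ATF4 and CHOP activity, had normalized counts of 213 to 249 (median 222) in 5 % CTRL and 210.5 to 275 (median 229.7) in 1 % CTRL. Trib3 in stimulated myotubes was at 704 to 783 (median 764) under 5 % O2 and 412 to 575 (median 531) under 1 % O2. The unstimulated groups overlapped and the stimulated groups did not, with 5 % STIM on top. Trib3 rose 3.35-fold with stimulation under 5 % O2 (log2 difference 1.74, SE 0.070, adjusted p = 1.64e-19, limma) and 2.17-fold under 1 % O2 (adjusted p = 1.16e-14). The response under 1 % O2 was smaller (log2 difference -0.63, SE 0.10, adjusted p = 3.08e-05 for the interaction, limma), which made Trib3 the only member with a called interaction below 0, beside 5.43 % of all genes.

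Ddit3, which encodes the transcription factor CHOP of prolonged ER stress, had normalized counts of 562 to 622 (median 587) in 5 % CTRL and 531 to 543 (median 539) in 1 % CTRL. Ddit3 in stimulated myotubes was at 823 to 1107 (median 894) under 5 % O2 and 833 to 1293 (median 1109) under 1 % O2. Both stimulated groups lay above both unstimulated groups, and the stimulated groups overlapped each other. Stimulation raised Ddit3 1.55-fold under 5 % O2 and 1.97-fold under 1 % O2 (adjusted p = 1.34e-07 and 1.45e-11, limma), and the response was larger under 1 % O2 (log2 difference 0.35, SE 0.10, adjusted p = 0.023 for the interaction, limma). It was 1 of 2 members with a called interaction above 0, beside 5.88 % of all genes. The 6 libraries of 1 % CTRL lay below the 6 of 5 % CTRL without overlap, but the difference was not called in the fit of all groups (log2 difference -0.14, SE 0.072, adjusted p = 0.108, limma) and was called in a fit of these 2 groups alone (adjusted p = 0.00898). For 1 % STIM against 5 % STIM the reverse held, with an adjusted p of 0.0112 in the fit of all groups and 0.0970 in the fit of those 2 alone (log2 difference 0.22). A second gene model of the same symbol was listed at 0 in every library.

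**Figure D3:**
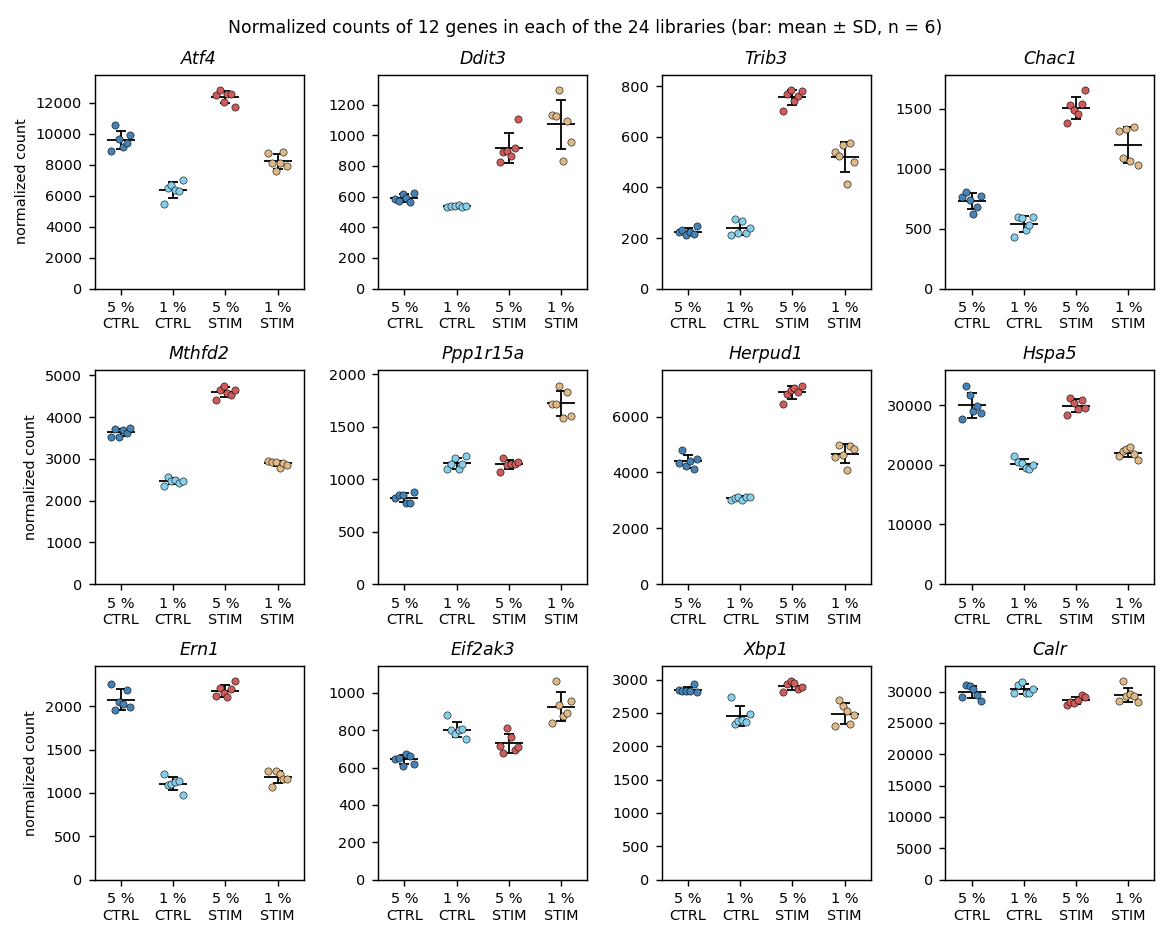
Normalized counts of 12 genes in each library (points) by group, with the mean and SD of 6 libraries (bars), on linear axes from 0. Atf4, Mthfd2 and Herpud1 are highest in 5 % STIM and lowest in 1 % CTRL, Trib3 and Chac1 are high in both stimulated groups, Ern1 and Hspa5 fall under 1 % O2 with little difference by stimulation, and Calr is level.

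Ppp1r15a (GADD34), which brings phosphatase 1 to eIF2 and so ends the response, was the one gene of the arm called higher under 1 % O2 in both states. It had normalized counts of 771 to 874 (median 837) in 5 % CTRL and 1094 to 1219 (median 1146) in 1 % CTRL. Ppp1r15a in stimulated myotubes was at 1071 to 1204 (median 1143) under 5 % O2 and 1585 to 1888 (median 1716) under 1 % O2. The lowest library under 1 % O2 lay above the highest under 5 % O2 of the same state, and 1 % STIM lay above all other groups. It was called higher in all 4 comparisons, with log2 differences of 0.48 and 0.59 for 1 % O2 and 0.47 and 0.58 for stimulation (largest adjusted p 1.62e-10, limma).

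The remaining regulators of the arm divided. Nupr1, a stress-induced chromatin protein, and Cebpg, a dimer partner of ATF4, were called lower under 1 % O2 in both states and higher with stimulation under both O2 levels. For stimulation, Nupr1 had log2 differences of 0.72 and 0.60 and Cebpg of 0.52 and 0.53. Atf5 was called in no comparison, with log2 differences between 0.031 and 0.20, although its response under 5 % O2 was called higher with libraries rescaled to the same total. Cebpb was low, with 20.4 to 39.9 (median 23.5) normalized counts in 5 % STIM against 3.05 to 11.5 (median 8.75) in 5 % CTRL. It reached the filter's 10 in all 6 libraries of 5 % STIM and in 7 of the other 18, and 20.7 % of its exon bases lie antisense to Tmem189, so its calls at this level are uncertain. Without Cebpb, stimulation under 5 % O2 raised 13 of 14 genes of the arm (median 0.42) and 17 of 38 members, and 1 % O2 with stimulation lowered 11 of 14 (median -0.38) and 22 of 38. Its other comparisons were not called. Of the 5 genes of the arm with CARE in the window, 4 (all but Trib3) fell under 1 % O2 without stimulation, and all 5 fell with it and rose with stimulation under both O2 levels. Among the 10 without a match in the window, 6 were called lower and 1 higher under 1 % O2 without stimulation, beside 30.5 % and 29.4 % of all genes. With stimulation, 7 were called lower and 2 higher, beside 28.4 % and 29 % of all genes. Stimulation raised 9 of these 10 under 5 % O2 and 7 under 1 % O2, beside 9.44 % and 11.5 % of all genes. The median log2 differences of these 10 were 0.35 and 0.30, against 0.94 and 0.84 in the 5 with a match. The 10 include the low gene Cebpb, and sequence outside the windows was not searched. Whether CARE has a part in these responses was not tested.

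**Figure D4:**
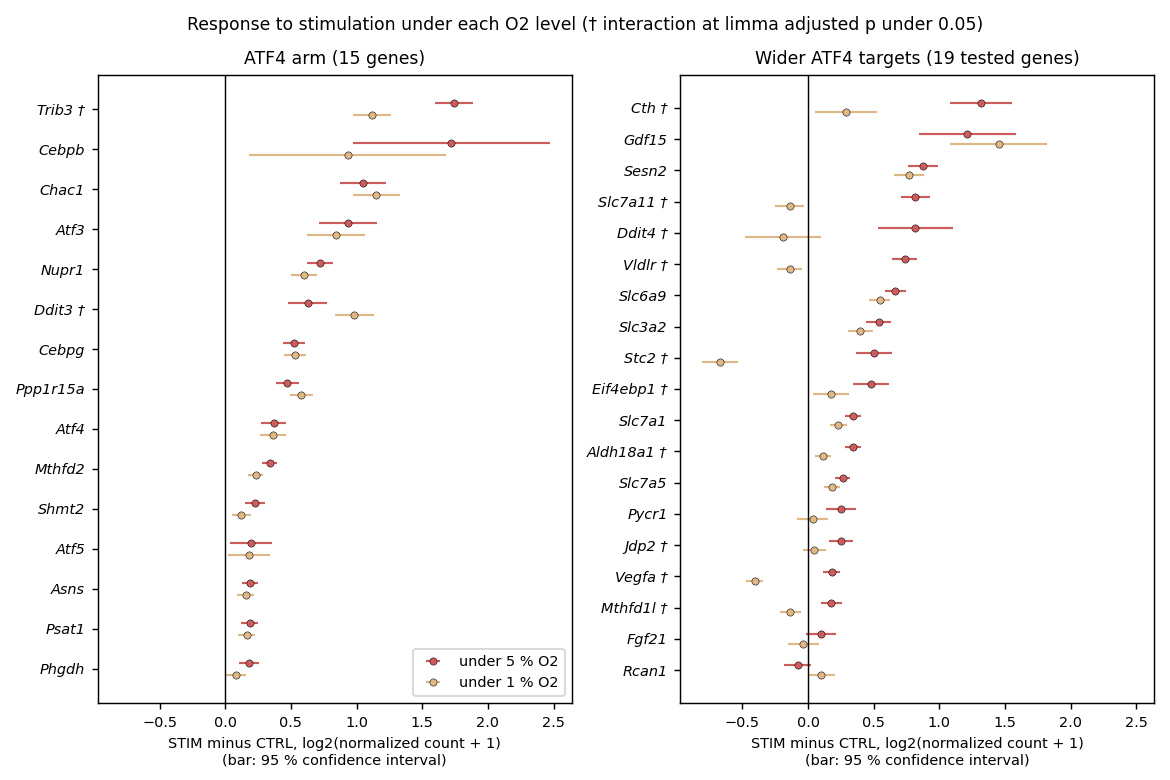
Response to stimulation (STIM minus CTRL in log2(normalized count + 1)) under 5 % and 1 % O2 with 95 % confidence intervals, for the ATF4 arm on the left and 19 wider ATF4 targets on the right, with a dagger where the interaction was called. Of the left panel Trib3 and Ddit3 bear a dagger, in opposite directions, and of the right panel 10 genes do, all with the lower response under 1 % O2.

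Among the sensors and proximal regulators, 4 of 6 were called lower and 1 higher under 1 % O2 in each state. The shares over all genes were 30.5 % and 29.4 % without stimulation, and 28.4 % and 29 % with it. With 6 genes, nothing is read from the distance to these shares. Ern1, which encodes the sensor IRE1 that splices Xbp1, had normalized counts of 1962 to 2257 (median 2035) in 5 % CTRL and 977 to 1215 (median 1115) in 1 % CTRL. Ern1 in stimulated myotubes was at 2107 to 2287 (median 2178) under 5 % O2 and 1064 to 1256 (median 1195) under 1 % O2. Every library under 1 % O2 lay below every library under 5 % O2, and stimulated and unstimulated libraries overlapped within an O2 level. Its level under 1 % O2 was 0.533 times that under 5 % O2 without stimulation and 0.544 times with it (adjusted p = 1.52e-18 and 5.04e-18, limma), and neither response to stimulation was called (0.071 and 0.10 on the log2 scale). With libraries rescaled to the same total, the response under 1 % O2 was called higher.

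Ppp1r15b, the constitutive counterpart of Ppp1r15a, had normalized counts of 3891 to 4314 (median 4158) in 5 % CTRL and 2615 to 2788 (median 2666) in 1 % CTRL. Ppp1r15b in stimulated myotubes was at 4213 to 4426 (median 4274) under 5 % O2 and 2654 to 3060.2 (median 2875) under 1 % O2. The groups under 1 % O2 lay below those under 5 % O2 without overlap, the opposite direction to Ppp1r15a. Its log2 difference was -0.62 (SE 0.032) without and -0.59 (SE 0.032) with stimulation, both called. Its responses to stimulation were not called (0.056 and 0.084), but both were called higher with libraries rescaled to the same total. Of its exon bases, 11.4 % lie antisense to Gm26616, whose reads cannot be told apart from its own where strand is not used.

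Eif2ak3, the eIF2 kinase PERK, had normalized counts of 609.7 to 675 (median 648) in 5 % CTRL and 755 to 881 (median 802) in 1 % CTRL. Eif2ak3 in stimulated myotubes was at 680.3 to 813 (median 712) under 5 % O2 and 838 to 1061 (median 912) under 1 % O2. The groups under 1 % O2 lay above those under 5 % O2 in the same state. It was called higher in all 4 comparisons, with log2 differences of 0.32 and 0.34 for 1 % O2 and 0.18 and 0.20 for stimulation. Of its exon bases, 8.05 % lie antisense to Gm43292. Eif2ak4, the amino acid sensing kinase GCN2, was called in none (0.0073 to 0.12), but was called higher under 1 % O2 in both states when libraries were rescaled to the same total.

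Xbp1, the transcription factor made active by splicing, had normalized counts of 2811 to 2930.1 (median 2833) in 5 % CTRL and 2337 to 2733 (median 2380.4) in 1 % CTRL. Xbp1 in stimulated myotubes was at 2814 to 2971 (median 2913) under 5 % O2 and 2306 to 2688 (median 2503) under 1 % O2. The groups under 1 % O2 lay below those under 5 % O2 in each state, by a log2 difference of -0.22 in both (SE 0.036; adjusted p = 2.96e-06 and 2.60e-06, limma), and stimulation changed it by 0.028 and 0.025, neither called. Atf6 had normalized counts of 7817 to 8516 (median 8320.1) in 5 % CTRL and 6979 to 7876 (median 7158) in 1 % CTRL. Atf6 in stimulated myotubes was at 8686 to 9482 (median 8852) under 5 % O2 and 7161 to 7585 (median 7271) under 1 % O2. Its 5 % STIM libraries were the highest and did not overlap those of 5 % CTRL or 1 % STIM. Atf6 was called lower under 1 % O2 in both states (-0.18 and -0.29 on the log2 scale) and higher with stimulation under 5 % O2 (0.12, adjusted p = 0.00386, limma).

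Of the ER chaperones, Hspa5 (BiP), the main Hsp70 of the ER and the partner that holds the sensors inactive, fell most under 1 % O2 in either state. It had normalized counts of 27614 to 33199 (median 29421) in 5 % CTRL and 19264 to 21456 (median 20089) in 1 % CTRL. Hspa5 in stimulated myotubes was at 28251 to 31127 (median 29859.8) under 5 % O2 and 20812 to 22967 (median 22058) under 1 % O2. The groups under 1 % O2 lay far below those under 5 % O2, and unstimulated and stimulated libraries overlapped. Its mean was 29998 ± 2088 in 5 % CTRL and 20138 ± 778 in 1 % CTRL (SD, n = 6), a fitted ratio of 0.672 (log2 difference -0.57, SE 0.036, adjusted p = 1.54e-15, limma), and the difference with stimulation was -0.44 (adjusted p = 1.65e-12). Stimulation raised Hspa5 by 0.13 under 1 % O2 (adjusted p = 0.00851, limma), and its difference under 5 % O2 was -0.0048 with a 95 % confidence interval of -0.078 to 0.069.

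Dnajb9, a co-chaperone of BiP that represses IRE1, had normalized counts of 1265 to 1437 (median 1364) in 5 % CTRL and 861 to 1035 (median 982) in 1 % CTRL. Dnajb9 in stimulated myotubes was at 1504 to 1628 (median 1545) under 5 % O2 and 1131 to 1281 (median 1211) under 1 % O2. The groups did not overlap in any of the 4 comparisons, whereas 5 % CTRL and 1 % STIM, which are not compared directly, did. Under 1 % O2 it fell by 0.51 without and fell by 0.37 with stimulation on the log2 scale, and rose by 0.19 and 0.32 with stimulation under 5 % and 1 % O2 (largest adjusted p 7.75e-04, limma).

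Manf, a secreted factor of the stressed ER, had normalized counts of 1084 to 1442 (median 1218) in 5 % CTRL and 1013 to 1147 (median 1072) in 1 % CTRL. Manf in stimulated myotubes was at 1097 to 1279.6 (median 1246) under 5 % O2 and 867 to 968 (median 936) under 1 % O2. Its 1 % STIM libraries lay below all libraries of every other group. It was called lower under 1 % O2 in both states (-0.20 and -0.39) and, unlike any other member, lower with stimulation under 1 % O2 (-0.22, adjusted p = 0.00139, limma). Of its exon bases, 8.85 % lie antisense to other genes.

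Of the other 11 ER chaperones and folding enzymes, 5 were called in some comparison. Hyou1, a nucleotide exchange factor of BiP, had normalized counts of 5962 to 6235 (median 6041) in 5 % CTRL and 5157 to 5889.6 (median 5603) in 1 % CTRL. Hyou1 in stimulated myotubes was at 5269.9 to 5958 (median 5596) under 5 % O2 and 5108 to 5702 (median 5336) under 1 % O2. The 5 % CTRL libraries lay above all those of the other groups, and it was called lower in 1 % CTRL (-0.13) and in 5 % STIM (-0.11) than in 5 % CTRL. Pdia6, a protein disulfide isomerase, was called lower under 1 % O2 in both states (-0.15 and -0.14), Creld2 with stimulation alone (-0.15, adjusted p = 0.0302, limma), and Canx (calnexin) was called higher there (0.060, adjusted p = 0.0442). Both of the last calls were lost in several fits that left out 1 library. Sdf2l1, part of an ER chaperone complex, was low, with 39.4 to 48.1 (median 44.5) normalized counts in 5 % CTRL and 56.1 to 91.1 (median 72.0) in 1 % CTRL, and rose under 1 % O2 without stimulation (log2 difference 0.67, SE 0.13, adjusted p = 4.86e-05, limma).

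For Calr (calreticulin), Hsp90b1 (GRP94), Pdia3, Pdia4, Dnajb11 and Dnajc3, log2 differences in the 4 comparisons lay between -0.092 and 0.049, and none was called. Per kilobase of exon, Calr had the highest mean level of any member in each group, 9933 to 10550.1 normalized counts. On the same scale Hsp90b1 had mean levels of 6618 to 7151, and Hspa5 of 4762 to 7093, below Hsp90b1 in 3 groups and above it in 5 % STIM. Of the exon bases of Hsp90b1, 10.3 % lie antisense to 1810014B01Rik and 5.38 % overlap Gm15344 and Gm25745 on the same strand, so its level is uncertain. Small log2 differences among the ER chaperones depend on the scaling. With libraries rescaled to the same total, Calr and Pdia4 were called higher under 1 % O2 in both states, Canx and Dnajc3 without stimulation, and Pdia3 and Sdf2l1 with it. Manf and Hyou1 were then no longer called without stimulation, nor Creld2 with it, nor Hyou1 between 5 % STIM and 5 % CTRL. The ER chaperones then counted 5 higher and 3 lower of 14 without stimulation and 5 higher and 4 lower with it, from which nothing is read beside the shares of all genes under this scaling given above. Hspa5, Dnajb9 and Pdia6 stayed lower and all calls of the ATF4 arm under 1 % O2 stayed. Of the 7 ER chaperone genes with ERSE in the window, 2 were called lower in 1 % CTRL (Hspa5 and Pdia6) and 5 were not called. Of the 5 with a window but no ERSE, 1 was called lower and 1 higher, beside 30.5 % and 29.4 % of all genes. The windows printed for Hspa5 and Calr thus stand for a gene that fell and one that did not.

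Of the ER-associated degradation genes, Herpud1 was called in the same directions as most of the ATF4 arm. Herpud1, a membrane protein that gathers the degradation complex (ENSMUSG00000031770, chr8:94386438-94395377, plus strand), had normalized counts of 4111 to 4785 (median 4370.2) in 5 % CTRL and 2998 to 3127 (median 3108) in 1 % CTRL. Herpud1 in stimulated myotubes was at 6454 to 7095 (median 6909.6) under 5 % O2 and 4095 to 4977 (median 4734) under 1 % O2. Here too the groups of each comparison did not overlap, and 5 % CTRL and 1 % STIM did. Its level under 1 % O2 was 0.701 times that under 5 % O2 without stimulation and 0.679 times with it, and stimulation raised it 1.56-fold under 5 % O2 and 1.51-fold under 1 % O2 (largest adjusted p 9.58e-14, limma). The interaction was -0.045 with a 95 % confidence interval of -0.15 to 0.064.

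Edem1, which draws misfolded glycoproteins to degradation, had normalized counts of 736 to 854 (median 754) in 5 % CTRL and 858 to 1048 (median 894) in 1 % CTRL. Edem1 in stimulated myotubes was at 739 to 864 (median 789.9) under 5 % O2 and 861 to 972 (median 926) under 1 % O2. The unstimulated groups did not overlap, and the stimulated groups overlapped narrowly. It was called higher under 1 % O2 in both states (0.24 and 0.21). Sel1l and Syvn1, the adaptor and ubiquitin ligase of the same complex, were called lower in 1 % CTRL than in 5 % CTRL (-0.17 and -0.18), and Sel1l also in 1 % STIM against 5 % STIM (-0.13), a call lost with libraries rescaled to the same total. Syvn1 had the third called interaction, 0.17 on the log2 scale (adjusted p = 0.0456, limma), which was lost in most fits that left out 1 library.

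Over the comparisons, the 2 groups did not overlap for 21 of 39 members between 1 % and 5 % CTRL, for 24 between 1 % and 5 % STIM, for 18 between 5 % STIM and 5 % CTRL, and for 14 between 1 % STIM and 1 % CTRL. Over all genes tested these shares were 38.2 %, 37.3 %, 11.1 % and 11.2 %. For the ATF4 arm they were 11, 13, 13 and 11 of 15 genes.

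A wider list of 20 ATF4 targets, chosen with earlier results of these data known, was counted in the same way. Of them 19 were tested, and Cbs was too low. Stimulation under 5 % O2 raised 17 of 19 and lowered none (median 0.48), beside 9.44 % and 12 % of all genes. Exposure to 1 % O2 without stimulation lowered 12 and raised 5 (median -0.22), beside 30.5 % and 29.4 % of all genes. The 5 raised are 26.3 % of the list, near that share, and no result about the list is drawn from them. With stimulation, 1 % O2 lowered 15 and raised 2 (median -0.58), beside 28.4 % and 29 % of all genes. Stimulation under 1 % O2 raised 7 and lowered 4 (median 0.10), beside 11.5 % and 10.8 % of all genes. The interaction was called below 0 for 10 of 19 genes and called above 0 for none. Over all genes the interaction was called below 0 for 5.43 % and above 0 for 5.88 %.

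The amino acid transporters Slc6a9 and Slc7a1 and the cysteine enzyme Cth had some of the larger differences. Slc6a9, a glycine transporter, had means of 1805 ± 65.8 in 5 % CTRL and 2862 ± 77.0 in 5 % STIM, against 761 ± 34.0 in 1 % CTRL and 1114 ± 82.5 in 1 % STIM (SD, n = 6). Exposure to 1 % O2 took it to 0.422 times its level without stimulation and 0.389 times with it. Of its exon bases, 30.2 % lie antisense to B4galt2, Ccdc24 and Gm17114, so its values are uncertain. Slc7a1, a transporter of cationic amino acids, was at 0.502 times without stimulation. Cth was at 88.2 ± 16.2, 219 ± 24.3, 52.3 ± 5.32 and 64.8 ± 11.5 in the same order, with a rise on stimulation of 2.49-fold under 5 % O2 and an interaction of -1.02 (adjusted p = 4.06e-05, limma). Sesn2, an inhibitor of mTORC1, and Gdf15, a secreted stress factor, rose with stimulation under 5 % O2 by log2 differences of 0.87 and 1.21.

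The 5 targets called higher in 1 % CTRL than in 5 % CTRL were Ddit4, Vldlr, Vegfa, Sesn2 and Stc2. Genes among them are also known as hypoxia-induced. Ddit4 (REDD1) had means of 253 ± 33.9 in 5 % CTRL and 444 ± 14.1 in 5 % STIM, against 1359 ± 262 in 1 % CTRL and 1186 ± 224 in 1 % STIM. Its rise under 1 % O2 was 5.28-fold without stimulation and 2.62-fold with it, and its interaction was -1.01. Stc2, a secreted glycoprotein, rose with stimulation under 5 % O2 and fell with it under 1 % O2 (0.50 and -0.67, interaction -1.17, adjusted p = 6.92e-11, limma).

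Of the 10 eIF2 kinases and subunits of eIF2 and eIF2B, 6 were called lower and 2 higher in 1 % CTRL than in 5 % CTRL, beside 30.5 % and 29.4 % of all genes, the lowest being Eif2s2, the beta subunit of eIF2 (-0.32), and the highest Eif2ak2, the kinase PKR (0.29). The range of the list was narrow, with no log2 difference in any of the 4 comparisons outside -0.32 to 0.29. Stimulation under 5 % O2 lowered 5 and raised 1, beside 12 % and 9.44 % of all genes. Among the 5 were Eif2b1 with -0.16, Eif2b4 with -0.14 and Eif2s3x with -0.13 on the log2 scale. Under 1 % O2 stimulation lowered none and raised 1, beside 10.8 % and 11.5 % of all genes. Other gene models, Gm2223 and Eif2s3x-ps1, hold 34.2 % of the runs of 75 exon bases of Eif2s3x, so its count is uncertain.

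Of 32 further ER quality control genes, 10 were called lower and 5 higher in 1 % CTRL than in 5 % CTRL (median -0.0046), and 12 lower and 8 higher in 1 % STIM than in 5 % STIM. The shares called lower, 31.2 % and 37.5 %, lay near or above the 30.5 % and 28.4 % over all genes, and those called higher, 15.6 % and 25 %, below 29.4 % and 29 %, and no result about the list is drawn from this. The one with the largest difference was Ero1a, the oxidase that recharges protein disulfide isomerases and also a known hypoxia-induced gene, with means of 3215 ± 202 in 5 % CTRL and 3623 ± 161 in 5 % STIM, against 9363 ± 621 in 1 % CTRL and 6329 ± 198 in 1 % STIM (SD, n = 6). It rose 2.91-fold and 1.75-fold under 1 % O2, and its interaction was -0.74 (adjusted p = 1.82e-11, limma). Selenos and Sil1 were called lower under 1 % O2 without stimulation (-0.37 and -0.33), and Wfs1, an ER membrane protein that restrains ATF6, was called lower with stimulation under 1 % O2 (-0.20) and in 1 % STIM against 5 % STIM (-0.42).

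Of 9 genes of the mitochondrial unfolded protein response, 3 were called higher and 3 lower in 1 % CTRL than in 5 % CTRL, each 33.3 % of the list, near the 29.4 % and 30.5 % of all genes. In 1 % STIM against 5 % STIM, 5 were called higher and 1 lower, beside 29 % and 28.4 % of all genes, and stimulation under 5 % O2 lowered 3 and raised none, beside 12 % and 9.44 % of all genes. The protease Lonp1 rose under 1 % O2 without stimulation (0.30) and the chaperonin Hspd1 fell (-0.30), although other gene models hold 31.0 % of its runs of 75 exon bases, so that its count is uncertain. Oma1, the protease that can activate the integrated stress response from mitochondria, was called higher under 1 % O2 in both states (0.28 and 0.36) and lower with stimulation under 5 % O2 (-0.25).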

How the data were processed

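RNA of 24 libraries (4 groups of 6) was sequenced as single-end reads of stranded mRNA libraries. Per the study's methods, the reads were longer than the runs of 75 exon bases compared between gene models above. A shared run therefore need not make a read ambiguous, and the share of ambiguous reads was not counted. Per the labels and the submitters' processing notes, the authors checked reads with FastQC 0.11.7, aligned them to GRCm38 with STAR 2.5.4b and counted them per gene with RSEM 1.3.0, with its settings left at their defaults. The deposited values are these counts divided by a DESeq2 size factor for each library, a normalized signal per gene from which whole reads were recovered for 100 % of values (tolerance 0.01 reads). The use of strand in counting is not named apart from these defaults, and the annotation release is not given in the sources used here. Genes with antisense overlap are therefore uncertain. A second deposited table holds log2 fold changes, p-values, adjusted p-values and calls of the authors' own limma comparisons and was not used. Every value column was assigned to a sample (unused columns: 0).

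Genes that reached 10 normalized counts in 6 or more libraries were tested with limma 3.58.1 in R 4.3.3 on log2(normalized count + 1), with 1 fit of 4 group means and no covariate, and Benjamini-Hochberg adjustment over 14541 genes per comparison. The interaction is the response to stimulation under 1 % O2 minus that under 5 % O2. The script was tested on simulated data. Alternatives were rescaling to the same total, an adjusted p threshold of 0.01, testing all genes without a filter, a block for the replicate number, adding 10 before the log, fits of the compared groups alone, the length slope as a covariate, edgeR 4.0.16 and DESeq2 1.42.0 on the recovered reads (edgeR called 4390 genes higher and 4394 lower in 1 % CTRL than in 5 % CTRL, against 4271 and 4437 by limma), and leaving out each library in turn. The study's methods call the 6 libraries of a group biological replicates. The p-values set a difference against the spread between such libraries of a single line, and do not cover spread between lines or animals. The replicate numbers did not pair the libraries.

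Atf4, Ddit3, Xbp1 and Hspa5 were given in full, with up to 3 called members per comparison and group of members that had the largest log2 difference and averaged 100 or more in the group where they were higher, and likewise for the wider lists. Other genes were named after their values were seen. The members and lists were chosen with earlier results of these data known. Promoter sequences are from RefSeq on GRCm38.p6. Tables and plots were made with Python 3.11.15 and matplotlib 3.10.9.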

Additional observations from a re-analysis of the deposited data

Results flagged for a closer look

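Within the groups of 6 libraries, 12 of 156 combinations of member and group had a highest or lowest library far from the rest by Dixon's criterion, where chance gives about 1 in 20. Replicate 1 of 1 % CTRL held 6 of the 12. It was the lowest of its group for Atf5, at a normalized count of 1619.9, and the highest for Xbp1 (2733), Pdia3 (11704), Dnajc3 (2920.2), Edem1 (1048) and Sel1l (4240.2). Without this library, 5 members were called higher and 23 lower in 1 % CTRL than in 5 % CTRL, against 4 and 22 with it. This library also had the steepest slope of log2 value on exon length, and the part of that slope in these values was not tested.

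Replicate 5 of 5 % CTRL was the highest of its group for Xbp1 (2930.1) and Edem1 (854). In 5 % STIM, the highest library stood apart for Atf5 (2710.2, replicate 2), Ddit3 (1107, replicate 6) and Asns (6162, replicate 3), and in 1 % STIM for Canx (20704, replicate 2).

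The response to stimulation differed between O2 levels by the limma interaction for 3 members. It was larger under 1 % O2 for Ddit3, by 0.35 on the log2 scale, and smaller for Trib3, with an interaction of -0.63. For Syvn1 the interaction was 0.17, and neither response was called on its own.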

How the results depend on the processing

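Of 100 differences of named members, 88 stayed on the same side of the threshold under every alternative tried, and no called difference changed sign. Values near 0 that were not called changed sign for Hspa5 with stimulation under 5 % O2 (-0.0048, and 0.026 with libraries rescaled to the same total), for the interaction of Atf4 (-0.0040, and 0.072 with the length slope as a covariate) and for that of Xbp1 (-0.0034, and 0.029 without 1 % CTRL replicate 1). The counts of members called lower in 1 % CTRL than in 5 % CTRL, lower in 1 % STIM than in 5 % STIM, and higher with stimulation under either O2 level stayed within 1.5 times of those reported under all of them. With libraries rescaled to the same total, members called higher under 1 % O2 numbered 9 without and 10 with stimulation, those lower with stimulation under 5 % O2 numbered 0, and interactions numbered 1 above and 3 below 0. At an adjusted p under 0.01, members higher in 1 % STIM than in 5 % STIM numbered 3, those lower in 5 % STIM than in 5 % CTRL 0, and interactions above 0 numbered 0. With the length slope as a covariate, 2 members were lower with stimulation under each O2 level and 2 interactions were below 0. Interactions above 0 numbered 1 without a filter and 1 with edgeR, and those below 0 numbered 2 with DESeq2. Beyond what each alternative changes by construction, the cause was not tested.

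Leaving out 1 library at a time gave 1 to 4 members lower in 5 % STIM than in 5 % CTRL (4 without 5 % CTRL replicate 6, and 2 without 5 % CTRL replicate 5 or 5 % STIM replicate 2) and 1 to 2 lower in 1 % STIM than in 1 % CTRL (2 without 1 % STIM replicate 2 or 3). It gave 1 to 3 interactions above 0, with 1 in 16 of 24 fits, and 1 to 3 below 0, with 3 without 1 % CTRL replicate 1 and 2 without 5 % CTRL replicate 2 or 5 % STIM replicate 1 or 6. The fall of Ddit3 in 1 % CTRL was called without 1 % STIM replicate 4 (adjusted p = 0.0424, limma).

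Same-numbered libraries of different groups did not deviate together. Of 36 correlations of their deviations, which lay between -0.148 and 0.155, 2 were over 0.1, and 5 of 24 libraries correlated best with their own number. With the replicate number as a block, 17 members were higher in 1 % STIM than in 1 % CTRL instead of 16, and no other count of members changed.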
